A study of Mus musculus with 6 samples.

Results

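The cadherins and protocadherins were the protein-coding genes of the deposited table whose symbols are Cdh plus a number or start with Pcdh, which gave 92 of its 54532 genes. They were compared between 2 groups of 3 RNA-seq libraries each from mouse vascular smooth muscle cells of wild-type genotype. The cells of the Ad-Con group had been given an adenoviral vector with a control plasmid, and those of the Ad-PDK4 group a vector with a plasmid for overexpression of pyruvate dehydrogenase kinase 4 (PDK4), which restrains entry of pyruvate into the citric acid cycle. The study took the cells from mouse aorta, and both groups were afterwards exposed to angiotensin II (Ang II), which the labels do not mention. The study calls the 3 libraries of a group biological replicates, without saying whether they came from separate mice or separate dishes, so the tests measure the spread between these libraries. The study's methods describe a PDK4 plasmid built in pEnCMV, a vector with an HA tag, and do not say whether the adenovirus carried the same insert or what share of cells took it up. The question was which cell adhesion genes of these families differ in cells with PDK4 overexpression.

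Cadherins are calcium-dependent adhesion proteins of the cell surface. Classical cadherins (type I and type II) join like cells and are held to the actin cytoskeleton by catenins. N-cadherin (Cdh2) is the one best known in smooth muscle. Cdh13 (T-cadherin) lacks a cytoplasmic tail, is anchored by a lipid and also binds adiponectin. The protocadherins are the largest group. Most sit in 3 neighbouring gene clusters, called alpha, beta and gamma, in which each gene has its own promoter and a cell uses a subset of them, a choice that depends on DNA methylation and on looping by CTCF and cohesin. Genes of the alpha and gamma clusters splice their own first exon to shared last exons, whereas genes of the beta cluster stand alone. The non-clustered delta protocadherins are scattered over the genome, and several of them bind the WAVE complex, which drives actin branching. The clusters are best known from neurons, where their combinations give cells an identity.

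The 6 libraries held 17588942 to 21861872 reads on genes. Pdk4 itself was measured at 9.502, 10.4 and 10.1 FPKM (fragment counts scaled by gene length and library size, the deposited unit) in the Ad-Con libraries and 7.67, 7.40 and 7.38 in those labelled Ad-PDK4, so it was lower under the label of its overexpression (log2 fold change -0.42 ± 0.061 SE, adjusted p = 0.0011). The primers given for amplifying the plasmid insert are those that the study lists for mouse PDK4. Whether transcripts of the adenoviral vector would be counted under the mouse gene is not given in the sources used here. Ad-PDK4 below means the libraries carrying that label. Of 8 smooth muscle markers 3 passed the filter on low values. Of these Acta2 fell (log2 fold change -1.11, adjusted p = 5.3e-06), and Smtn (0.018) and Lmod1 (-0.29) were not called. The summed level of all 8 was 87.8 to 89.4 FPKM in Ad-Con and 43.3 to 48.1 in Ad-PDK4, and most of it was Acta2. The defining contractile gene Myh11 had 2 to 10 reads in any library and Tagln 4 to 20, each with overlapping groups. The other markers under the filter were lower without overlap. Mylk had 188, 168 and 122 reads in Ad-Con against 27, 28 and 24 in Ad-PDK4. Cnn1 had 30, 20 and 22 against 17, 8 and 14, and Des 13, 10 and 16 against 4, 3 and 3. All 8 fibroblast markers passed the filter, with sums of 1606 to 1733 against 902 to 1002 FPKM that were mostly Col1a1, and 5 fell, 2 rose (Dcn and Pdgfrb) and Pdgfra was not called. Of 8 macrophage markers 1 passed (Cd68, which fell), with sums over all 8 of 13.3 to 16.4 against 3.69 to 5.50 FPKM. Csf1r, under the filter, had 11, 23 and 35 reads against 56, 62 and 61, and Ptprc, C1qa, C1qb and Tyrobp were at 0 in every library. The part of these shifts in the results below was not tested. In bulk RNA, fewer cells of a type and less RNA per cell cannot be told apart.

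Expression of the 92 members was uneven. At least 1 read was found for 79 of them and none for 13, and 35 had a mean of at least 0.5 FPKM over the 6 libraries and were tested. Calls were made where the adjusted p was under 0.05. Of the 35 tested members, 18 were lower in the Ad-PDK4 libraries, 5 were higher and 12 were not called, where 20.8% of the 13423 genes tested were called lower and 21.8% higher. When calls also had to reach 2-fold, 6 members were lower and 2 higher, against 2.68% and 3.95% of the genes tested. The groups did not overlap for 19 lower and 7 higher members, against 26.5% and 27.8% of the genes tested. The median log2 fold change was -0.36 over the tested members and -0.0031 over the genes tested. Without the filter, 79 members were fitted among 25202 genes, 22 were lower and 5 higher (9.93% and 10.6% of the genes fitted), and 11 and 3 were so by 2-fold (1.96% and 2.92%), with no overlap for 29 lower and 10 higher members (17% and 17.8%). On reads recovered from FPKM and gene length, limma-voom was run on genes with at least 30 reads over the 6 libraries, a fit added after the data had been seen. It took in 58 members of 15824 genes, with 25 lower and 8 higher (21.4% and 21.8% of the genes fitted), and 12 and 5 by 2-fold (4.08% and 5.05%). The members that passed the filter are not the whole family, and 3 of them (Pcdhb21, Pcdhga2 and Pcdhgb5) had a mean under 0.5 FPKM in one of the groups. Summed over the 92 members, the level was 212 ± 6.58 FPKM in Ad-Con and 203 ± 1.61 in Ad-PDK4 (SD, n = 3 each), a ratio of 0.958. The plot of FPKM by gene shows both groups for each tested member.

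**Figure D1:**
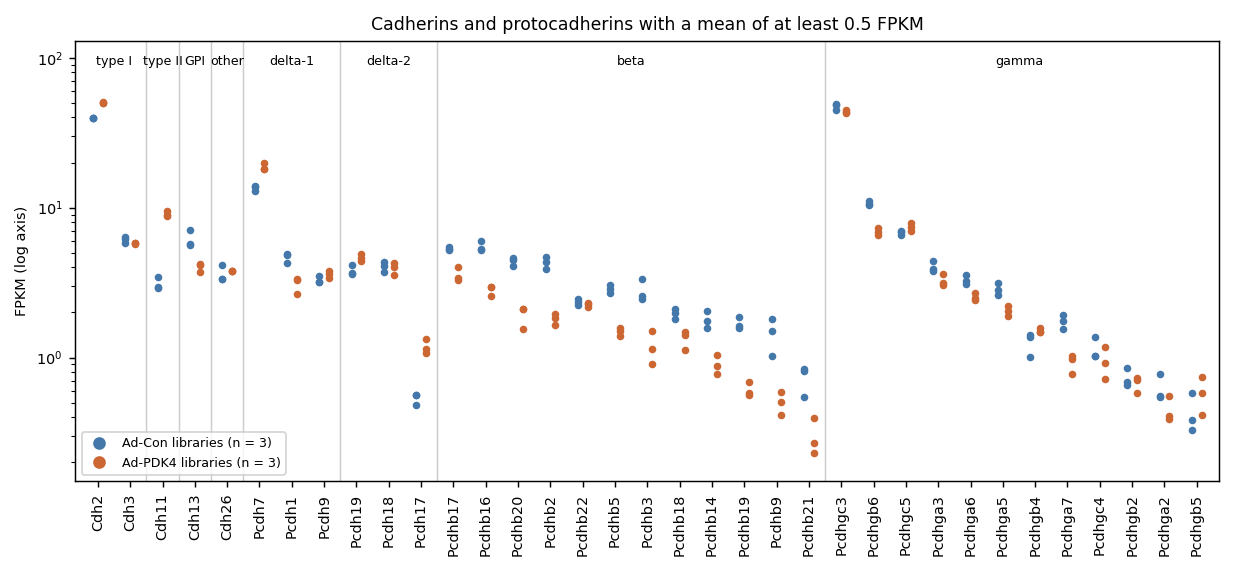
FPKM (log axis) of the 35 tested cadherins and protocadherins, 1 point per library, Ad-Con in blue and Ad-PDK4 in orange, grouped by family role. Cdh2 and Pcdhgc3 were the highest, Cdh11 and Pcdh17 had Ad-PDK4 points well above Ad-Con, and in 11 of the 12 beta-cluster genes all Ad-PDK4 points were below all Ad-Con points.

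N-cadherin was the most abundant of the classical cadherins. Cdh2 (ENSMUSG00000024304, chr18:16588877-16809246 on GRCm38) was at 39.6, 39.9 and 39.5 FPKM in Ad-Con and 50.1, 51.1 and 50.2 in Ad-PDK4. The groups did not overlap, and the gene rose by a modest amount with a small error (log2 fold change 0.35 ± 0.042, adjusted p = 0.00045). P-cadherin (Cdh3), a cadherin of basal epithelia and placenta, was next among type I genes at 6.11 ± 0.301 and 5.76 ± 0.0561 FPKM and was not called (log2 fold change -0.08, adjusted p = 0.36). Cdh1 (E-cadherin, the epithelial type) had 62, 26 and 27 reads in Ad-Con and 31, 32 and 31 in Ad-PDK4, under the filter and with overlapping groups. Cdh15 (M-cadherin of skeletal muscle) had 3 reads and Cdh4 (R-cadherin) 1 read in the 6 libraries together. The sum of the 5 type I genes was 46.2 ± 0.579 FPKM in Ad-Con and 56.6 ± 0.599 in Ad-PDK4, of which Cdh2 made up 85.3 to 86.6% and 89.1 to 89.2%. Of 8 epithelial markers 2 passed the filter and both were lower (Krt18 and Krt19), the summed level of all 8 was 83.1 to 96.3 FPKM in Ad-Con and 34.1 to 40.0 in Ad-PDK4, and Epcam and Esrp1 were at 0 in every library.

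Cdh11 had the largest rise among the tested members. Cdh11 (OB-cadherin, ENSMUSG00000031673, chr8:102632095-102785642) is a type II cadherin of mesenchymal cells such as osteoblasts and fibroblasts. It was read 532, 542 and 467 times in Ad-Con and 1426, 1399 and 1869 times in Ad-PDK4, or 2.94, 3.47 and 2.89 against 8.80, 8.98 and 9.503 FPKM. Each Ad-PDK4 library was more than 2-fold above each Ad-Con library, and the ratio of the means was 2.94 (log2 fold change 1.53 ± 0.088, adjusted p = 8.4e-06). The ratio of Cdh2 to Cdh11 in FPKM went from 13.5, 11.5 and 13.6 to 5.69, 5.69 and 5.29. Both cadherins were thus higher in Ad-PDK4, with Cdh11 the more so. Of the 13 type II genes, Cdh11 was the one that passed the filter, and its share of their summed FPKM was 76.4 to 81.3% in Ad-Con and 91.2 to 92.3% in Ad-PDK4.

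The other type II genes were under the filter. Cdh10 had 31 to 65 reads per library and Cdh24 26 to 39, each with overlapping groups, while Cdh6, Cdh9, Cdh12 and Cdh18 had at most 4 in any library and 5 genes had none (Cdh7, Cdh8, Cdh19, Cdh20 and Cdh22). Cdh5 (VE-cadherin, which defines endothelial junctions) had 4 reads, all in Ad-PDK4 replicate 1. Of 8 endothelial markers 2 passed the filter and neither was called (Kdr 0.68 and Egfl7 -0.72 as log2 fold changes), the sum of all 8 was 1.32 to 1.58 FPKM in Ad-Con and 1.30 to 1.64 in Ad-PDK4, and Tie1, Emcn and Cldn5 were at 0. Among the remaining cadherins, Cdh26 was at 3.62 ± 0.464 and 3.78 ± 0.0191 FPKM and was not called (adjusted p = 0.63). Cdh23 (a cadherin of the hair cell tip link) had 15 to 33 reads per library, Cdh17 (of liver and intestine) had 1 to 10, and Cdh16 (of kidney) had 1 read in all.

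T-cadherin moved the other way. Cdh13 (ENSMUSG00000031841, chr8:118283733-119324921), a cadherin of vascular smooth muscle and endothelium, was at 5.65, 7.13 and 5.69 FPKM in Ad-Con and 4.21, 4.16 and 3.72 in Ad-PDK4. Ad-Con replicate 2 was the highest library, but the groups did not overlap without it either. The gene fell by 0.59 on the log2 scale (SE 0.11, adjusted p = 0.0031). This makes 3 expressed cadherins with different changes in the same libraries: Cdh11 2.94-fold, Cdh2 1.27-fold and Cdh13 0.654-fold, as ratios of mean FPKM.

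The delta protocadherins, which lie outside the clusters, differed among themselves. Of the 9 delta genes 8 had reads, and 6 were tested, of which 3 rose (Pcdh7, Pcdh17 and Pcdh19), 1 fell (Pcdh1) and 2 were not called (Pcdh9, 0.12, and Pcdh18, -0.04, as log2 fold changes), where 21.8% of the genes tested were called higher and 20.8% lower. Pcdh7 (ENSMUSG00000029108, chr5:57717967-58133230), the most abundant, was at 12.9, 14.0 and 13.7 FPKM in Ad-Con and 18.15, 18.003 and 19.99 in Ad-PDK4 (log2 fold change 0.46 ± 0.063, adjusted p = 0.00079). Of its exonic bases, 21.08% lie opposite the antisense transcript 4932441J04Rik, and whether counting used strand is not given. Pcdh17 (ENSMUSG00000035566, chr14:84443563-84539002), which binds the WAVE complex, was read 149, 110 and 132 times in Ad-Con and 270, 304 and 307 times in Ad-PDK4, and its level went from 0.535 ± 0.0461 to 1.18 ± 0.138 FPKM (log2 fold change 1.01 ± 0.19, adjusted p = 0.0042). Neither gene overlapped between groups. The fold change of Pcdh17 lay at the 2-fold limit and dropped under it when Ad-Con replicate 2 or Ad-PDK4 replicate 2 was left out. Pcdh19 (ENSMUSG00000051323, chrX:133582860-133688987), a gene mutated in a female-limited epilepsy, was at 3.67, 4.14 and 3.58 against 4.65, 4.94 and 4.38 FPKM. Its rise was small and near the threshold (log2 fold change 0.29 ± 0.088, adjusted p = 0.031), and the call was lost when any of Ad-Con replicates 1 and 3 or Ad-PDK4 replicates 1 and 2 was left out (adjusted p = 0.080 to 0.10). Pcdh1 (ENSMUSG00000051375, chr18:38185914-38212053), a protocadherin of airway epithelium, was at 4.81, 4.87 and 4.29 against 3.32, 3.35 and 2.67 FPKM and fell by 0.57 on the log2 scale (adjusted p = 0.0041).

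The largest difference of the delta genes was in Pcdh10, which was under the filter. Pcdh10 (OL-protocadherin, ENSMUSG00000049100), which recruits the WAVE complex to cell contacts, was read 43, 37 and 27 times in Ad-Con and 214, 163 and 200 times in Ad-PDK4. Every Ad-PDK4 library was well above every Ad-Con library. In the fit without the filter it rose by 1.73 on the log2 scale (SE 0.24, adjusted p = 0.0029), and the call held without any 1 library (adjusted p = 0.0097 to 0.018). With limma-voom the log2 fold change was 2.38 ± 0.24 (adjusted p = 2.4e-08). Pcdh11x, a delta-1 gene of the X chromosome, had 26, 23 and 28 reads against 52, 41 and 68, without overlap. It passed the threshold with limma-voom (log2 fold change 1.0005 ± 0.29, adjusted p = 0.0073) and not in the fit without the filter (0.58 ± 0.27, adjusted p = 0.20). Pcdh8 had no reads. Outside the delta group, Pcdh12, Pcdh15 and Pcdh20 had 16, 5 and 2 reads in all.

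Promoter sequences are shown for the higher delta genes that had one in the source used, and these genes lie apart from each other in the genome. Cdh2 and Cdh11 also rose, but no promoter sequence was available for them. RefSeq (GRCm38.p6) gave a window from 250 bases before to 50 bases after the transcription start for 22 of the 92 members, among them Pcdh10, Pcdh17, Pcdh7 and Pcdh19. They are written 5′ to 3′ on the strand of the gene, with every CG dinucleotide in capitals.
Pcdh10, chr3:45378148-45378447, plus strand: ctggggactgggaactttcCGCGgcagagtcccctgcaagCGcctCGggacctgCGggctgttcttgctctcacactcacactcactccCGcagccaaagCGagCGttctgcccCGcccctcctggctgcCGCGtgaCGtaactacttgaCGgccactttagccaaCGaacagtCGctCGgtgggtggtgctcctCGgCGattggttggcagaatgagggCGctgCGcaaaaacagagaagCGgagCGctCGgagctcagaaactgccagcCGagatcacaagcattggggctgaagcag
Pcdh17, chr14:84443313-84443612, plus strand: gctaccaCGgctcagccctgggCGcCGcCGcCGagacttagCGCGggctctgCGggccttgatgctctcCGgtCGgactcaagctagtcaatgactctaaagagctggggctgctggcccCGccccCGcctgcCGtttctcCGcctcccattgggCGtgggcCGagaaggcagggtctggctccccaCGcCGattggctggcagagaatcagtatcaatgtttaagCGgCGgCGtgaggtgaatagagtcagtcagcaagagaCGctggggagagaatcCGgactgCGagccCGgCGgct
Pcdh7, chr5:57717831-57718130, plus strand: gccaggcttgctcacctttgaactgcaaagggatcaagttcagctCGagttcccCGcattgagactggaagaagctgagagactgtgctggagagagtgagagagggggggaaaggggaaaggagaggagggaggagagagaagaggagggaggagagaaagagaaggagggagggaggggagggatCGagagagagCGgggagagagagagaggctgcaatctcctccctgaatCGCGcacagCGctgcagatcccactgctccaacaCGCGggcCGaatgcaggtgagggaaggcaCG
Pcdh19, chrX:133688944-133689243, minus strand: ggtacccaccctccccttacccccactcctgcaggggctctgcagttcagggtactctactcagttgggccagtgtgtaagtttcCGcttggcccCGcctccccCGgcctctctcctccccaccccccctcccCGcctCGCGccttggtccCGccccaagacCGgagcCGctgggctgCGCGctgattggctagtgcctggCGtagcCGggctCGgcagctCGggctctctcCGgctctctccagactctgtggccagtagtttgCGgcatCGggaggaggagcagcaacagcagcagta
The CG count was 24 in Pcdh10, 26 in Pcdh17, 11 in Pcdh7 and 18 in Pcdh19, each above the median of 7 over all 32851 promoters of the table. The delta genes that were not called had similar windows, with 23 in Pcdh18 and 18 to 19 in Pcdh9. TATAAA, searched on both strands, was in none of these 4 windows and in 13.62% of all promoters. CACCTG, the E-box letters bound by Snail and Zeb factors, occurred 1 time in Pcdh7, in none of the other windows printed and in 20.21% of all promoters. These are matches of letters in a short window.

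**Figure D2:**
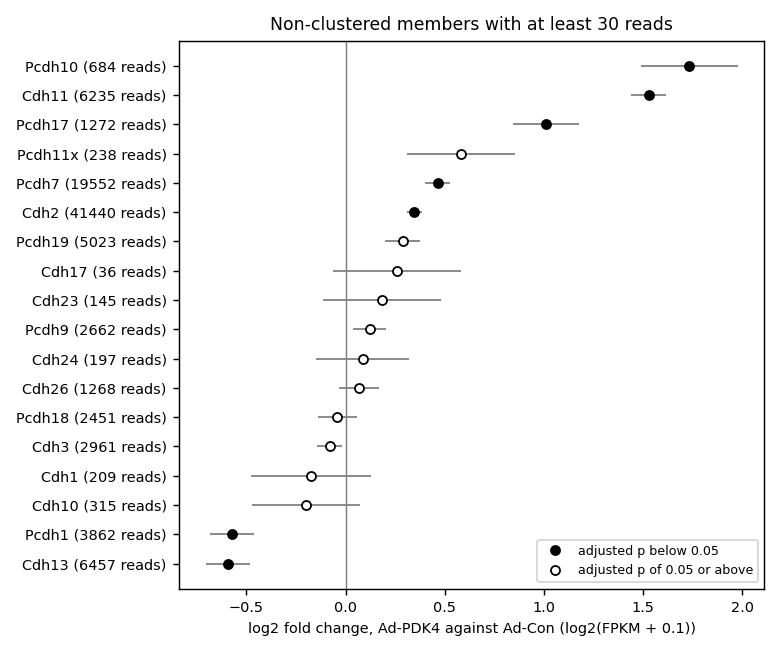
log2 fold change (Ad-PDK4 against Ad-Con, bars are standard errors) of the non-clustered members with at least 30 reads over the 6 libraries, from the limma fit without the filter on low values. Pcdh10, Cdh11 and Pcdh17 are above 1, and Cdh13 and Pcdh1 are the called genes below 0. Pcdh19 is open here because its adjusted p was 0.061 in this fit.

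The beta cluster was lower in Ad-PDK4 almost throughout. Its 22 genes occupy 259.5 kb of chromosome 18 (37264938 to 37524479), and 18 of them consist of a single exon. Their summed level was 36.5, 41.4 and 38.2 FPKM in Ad-Con and 20.6, 19.3 and 20.9 in Ad-PDK4, a ratio of 0.523 between the means of 38.7 ± 2.46 and 20.2 ± 0.866 (SD, n = 3). Of the 12 tested beta genes 11 fell and 1 (Pcdhb22) was not called, with a median log2 fold change of -0.998. Over all genes tested, 20.8% were called lower. Pcdhb21, 1 of the 11, passed the filter only through its Ad-Con mean (0.729 against 0.298 FPKM). All 21 beta genes with reads had a lower mean in Ad-PDK4, and in 18 of them the groups did not overlap, where 17% of the genes with a read were lower without overlap. The genes of a cluster share a locus and are not replicates of each other.

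Pcdhb16, one of the most abundant beta genes, was at 5.19, 6.02 and 5.29 FPKM in Ad-Con and 2.96, 2.57 and 2.95 in Ad-PDK4 (log2 fold change -0.94 ± 0.095, adjusted p = 0.00018). Pcdhb20 was at 4.06, 4.62 and 4.49 against 2.10, 1.54 and 2.11 FPKM (-1.17 ± 0.13, adjusted p = 0.00034). Pcdhb2 was at 3.88, 4.66 and 4.31 against 1.95, 1.85 and 1.64 FPKM (-1.19 ± 0.11, adjusted p = 9.6e-05). In each of the 3 genes the highest Ad-PDK4 library was well under the lowest Ad-Con library. Pcdhb19 went from 1.68 ± 0.149 to 0.609 ± 0.0665 FPKM and Pcdhb9 from 1.45 ± 0.392 to 0.503 ± 0.0907, the largest falls of the tested members (log2 fold changes -1.33 and -1.34, adjusted p = 0.00048 and 0.0037). Pcdhb3 (-1.18), Pcdhb21 (-1.06), Pcdhb14 (-0.92) and Pcdhb5 (-0.90) fell by similar amounts. Pcdhb17, at 5.32 ± 0.125 and 3.57 ± 0.405 FPKM, and its neighbour Pcdhb18, at 1.96 ± 0.160 and 1.34 ± 0.193 FPKM, fell less (log2 fold changes -0.57 and -0.52, adjusted p = 0.0020 and 0.020). Pcdhb18 lost its call without Ad-Con replicate 1 or 2 and Pcdhb21 without Ad-PDK4 replicate 1 or 2, with the direction kept.

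Pcdhb22 (ENSMUSG00000073591), the last gene of the cluster, stood apart at 2.46, 2.34 and 2.25 FPKM in Ad-Con and 2.28, 2.33 and 2.16 in Ad-PDK4 (log2 fold change -0.06 ± 0.094, adjusted p = 0.65). The groups overlapped, and the change was smaller than its SE. It has 2 exons, and 6.885% of its exonic bases are also annotated to Pcdhb21, which lies just before it. Of stretches of 100 bases, at most 2.31% in any other beta gene occurred in another gene too, against 5.47% in Pcdhb22 and 7.73% in Pcdhb21, so reads of most beta genes could be assigned to 1 gene.

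The beta genes under the filter had few reads and the same direction. Pcdhb7 had 49, 50 and 46 reads in Ad-Con and 14, 13 and 17 in Ad-PDK4, and fell by 1.41 on the log2 scale in the fit without the filter (adjusted p = 0.0032). Pcdhb10 had 20, 12 and 11 against 2, 1 and 4 reads (-1.37, adjusted p = 0.020), Pcdhb11 had 25, 21 and 33 against 9, 5 and 11 (-1.09, adjusted p = 0.039) and Pcdhb8 had 27, 23 and 26 against 7, 7 and 15 (-1.04, adjusted p = 0.033). Pcdhb12 had 21, 11 and 30 against 3, 6 and 6 reads (-1.27, adjusted p = 0.049), but 63.51% of its exonic bases lie opposite the antisense gene Gm37446, and whether counting used strand is not given. Pcdhb4 had 42, 52 and 28 against 22, 18 and 33 reads, and its groups did not overlap in FPKM, which allows for the greater depth of Ad-PDK4 replicate 3. Pcdhb6 had 17, 16 and 18 against 6, 10 and 9 reads. Neither was called (adjusted p = 0.17 and 0.15). Pcdhb13 and Pcdhb15 overlapped between groups and Pcdhb1 had no reads. In this fit 16 of 21 beta genes were called lower, where 9.93% of the genes fitted were, and 10 when Ad-PDK4 replicate 1 or 2 was left out. The calls of Pcdhb8, Pcdhb10, Pcdhb11 and Pcdhb12 were each lost without Ad-Con replicate 1, Ad-PDK4 replicate 1 or Ad-PDK4 replicate 2, among others, and Pcdhb7 kept its call without any 1 library (adjusted p = 0.010 to 0.017). Limma-voom also called 16 of 21 lower.

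**Figure D3:**
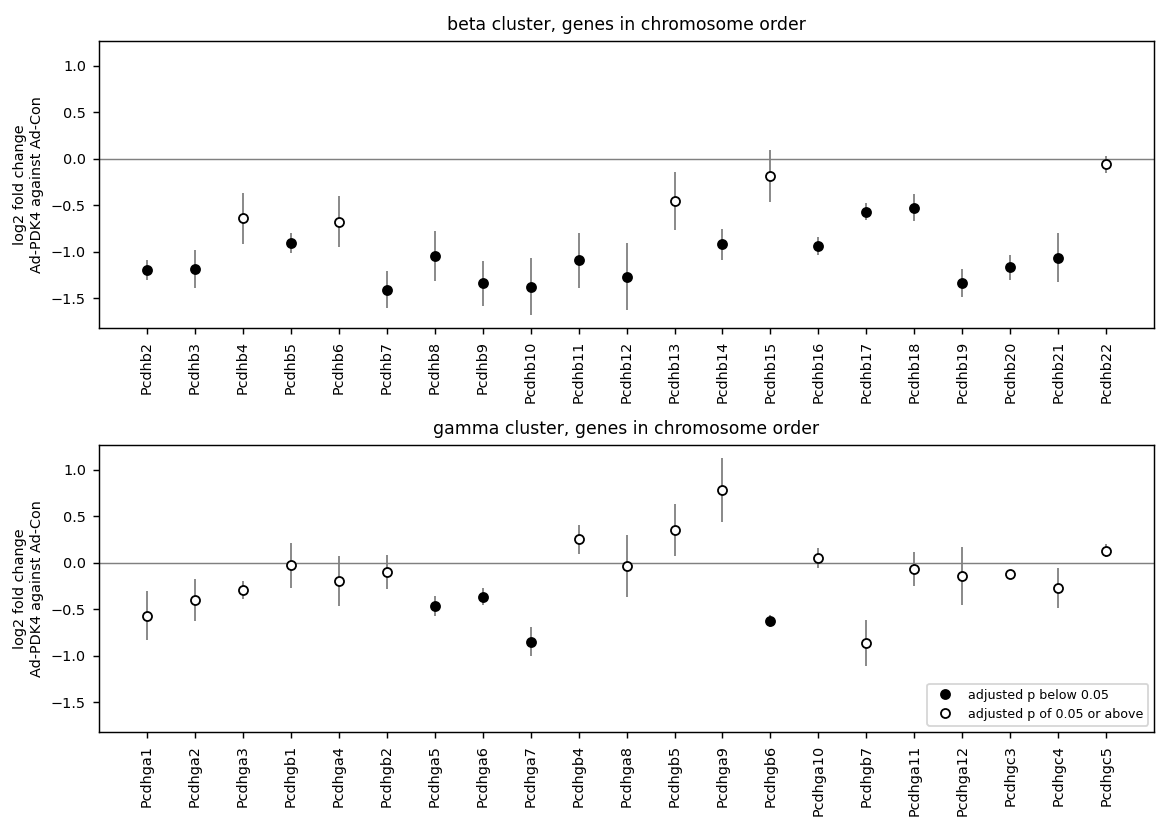
log2 fold change (Ad-PDK4 against Ad-Con, bars are standard errors) of each beta-cluster and gamma-cluster gene with a read, in chromosome order, from the limma fit without the filter. All 21 beta genes lie below 0, with Pcdhb22 at -0.06, while gamma genes lie on both sides. Pcdhga3 is open because its adjusted p was 0.083 in this fit.

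The gamma cluster lies downstream on the same chromosome (37661793 to 37841873, 180.1 kb) and was lower by a smaller amount. The summed level of its 21 genes was 83.8, 85.8 and 79.6 FPKM in Ad-Con and 71.4, 75.2 and 70.4 in Ad-PDK4, a ratio of 0.871. Of 12 tested genes 5 fell, 7 were not called and 0 rose, where 20.8% of the genes tested were called lower and 21.8% higher. The median log2 fold change of the 12 was -0.28. Pcdhgb6 (ENSMUSG00000103088) was at 10.6, 11.1 and 10.4 FPKM in Ad-Con and 6.87, 7.27 and 6.52 in Ad-PDK4 (log2 fold change -0.63 ± 0.065, adjusted p = 0.00018). Pcdhga7 was at 1.75, 1.93 and 1.54 against 1.02, 0.975 and 0.781 FPKM (-0.85 ± 0.16, adjusted p = 0.0040). Both were lower in each Ad-PDK4 library than in any Ad-Con library. Pcdhga5 (-0.47), Pcdhga6 (-0.36) and Pcdhga3 (-0.30) fell less, with adjusted p = 0.011, 0.018 and 0.042. Pcdhga3 lost its call when any library other than Ad-PDK4 replicate 2 was left out (adjusted p = 0.060 to 0.13), and Pcdhga6 without Ad-Con replicate 3 (adjusted p = 0.067).

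Pcdhgc3, a C-type gene at the end of the gamma cluster that many cell types express, was the most abundant protocadherin. It was at 48.9, 48.7 and 45.0 FPKM in Ad-Con and 42.6, 44.7 and 43.4 in Ad-PDK4 (log2 fold change -0.12 ± 0.052, adjusted p = 0.091). The groups lay next to each other without overlap, by a gap smaller than the spread within either. Pcdhgc5, another C-type gene, was at 6.87, 7.01 and 6.53 against 7.44, 7.90 and 7.02 FPKM and was not called either (0.13 ± 0.069, adjusted p = 0.17). As shares of the summed gamma FPKM, Pcdhgc3 made up 58.3, 56.8 and 56.5% in Ad-Con and 59.6, 59.4 and 61.7% in Ad-PDK4, and Pcdhgb6 12.6, 13.0 and 13.1% against 9.63, 9.67 and 9.26%. The share of Pcdhgb6 was lower and that of Pcdhgc3 higher, in each case without overlap. Together Cdh2 and Pcdhgc3 held 40.4 to 42.3% of the summed FPKM of all members in Ad-Con and 45.9 to 46.7% in Ad-PDK4.

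Among the gamma genes under the filter, Pcdhgb7 had 49, 37 and 35 reads in Ad-Con against 13, 20 and 24, and Pcdhga1 had 74, 52 and 56 against 26, 50 and 42. Both were lower without overlap and passed the threshold with limma-voom (adjusted p = 0.0085 and 0.038) but not in the fit without the filter (adjusted p = 0.052 and 0.19). Pcdhga9 went the other way, with 3, 12 and 14 reads against 26, 22 and 24 (limma-voom log2 fold change 1.503 ± 0.51, adjusted p = 0.020, and 0.18 in the fit without the filter). The gamma values are less certain than the beta values. Between 31.5 and 66.8% of the exonic bases of each gamma gene are shared with up to 25 genes on the same strand, and 28.35% of those of Pcdhgc3 lie opposite the antisense gene BC037039. In all, 8 gamma genes have exonic bases opposite an antisense gene, among them Pcdhga7 (10.27%) and Pcdhgb7 (16.36%). Since Pcdhga10 had 1 read in all, reads in the shared exons had not been credited to every gene. The alpha cluster had few counted reads, with 8 to 28 summed over its 14 genes in any library, none of its genes tested and 6 without a read. Its genes share 38.87 to 91.44% of their exonic bases on the same strand, so reads in shared exons may be missing from these counts.

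Genes around the clusters were counted by position. Of 31 tested genes within 500 kb that are no members, 6 were higher, 3 lower and 22 not called, with a median log2 fold change of 0.12. As shares, 19.35% of them were higher and 9.677% lower, against 21.81% and 20.84% of all tested genes. Between the clusters or inside them 5 such genes were tested and 0 were called, among them Taf7 (a subunit of a general transcription factor, encoded between the beta and gamma clusters, 0.20 ± 0.22, adjusted p = 0.51) and the pseudogene Pcdhgb8 (-0.48 ± 0.23, adjusted p = 0.13). Downstream of the gamma cluster, Diaph1 was higher (0.27, adjusted p = 0.023) and Hdac3 lower (-0.42, adjusted p = 0.00046). The member Pcdh1 also lies downstream within the 500 kb and was lower (-0.57, adjusted p = 0.0041). As a member it is not among the 31. Of 255 single-exon protein-coding genes elsewhere, 22.75% were lower and 20% higher. These neighbours were picked by position, after earlier values were known.

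Partner genes were counted from 6 lists, to be read against the 21.8% of all tested genes that were called higher and the 20.8% called lower. Of 12 genes for catenins and the junction plaque, 10 were tested, 2 rose, 4 fell and the median was -0.13. Beta-catenin (Ctnnb1), which links classical cadherins to alpha-catenin and also serves Wnt signalling, was at 263, 262 and 261 FPKM in Ad-Con and 199.9, 208 and 190.4 in Ad-PDK4 (-0.39 ± 0.048, adjusted p = 0.00044). It is named here after its values were seen. Plakoglobin (Jup), a close relative, fell by 0.55 and Ctnnal1 by 0.75 on the log2 scale. Vinculin (Vcl), which strengthens the link to actin, rose from 17.1 ± 0.480 to 30.4 ± 1.31 FPKM (0.83 ± 0.054, adjusted p = 1.6e-05), and delta-catenin (Ctnnd2) from 0.185 ± 0.0264 to 0.940 ± 0.166 FPKM (1.86 ± 0.31, adjusted p = 0.0021). Alpha-catenin (Ctnna1, -0.03) and p120-catenin (Ctnnd1, 0.14), also named after their values were seen, were not called. Ctnnd2, the only catenin of the list called higher, passed the filter only through its Ad-PDK4 mean. It had 33, 38 and 35 reads in Ad-Con against 141, 192 and 229. The called genes of this list thus moved both ways, as did the called cadherins, of which Cdh2 and Cdh11 rose and Cdh13 fell.

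Of 27 other genes of the cadherin superfamily 7 were tested, 2 rose, 1 fell and the median was 0.24. Fat1, a giant cadherin of smooth muscle and epithelia, rose by 0.31 and desmoglein 2 (Dsg2), a desmosomal cadherin, by 0.43 on the log2 scale (adjusted p = 0.0095 and 0.018), while Dchs1, a ligand of Fat4, fell by 1.05 (adjusted p = 0.0041). Of 11 proteases that cleave cadherins, all were tested, 4 rose, 2 fell and the median was 0.088. Adam17, a sheddase, rose by 0.32, whereas Aph1b and Psen2 fell by 1.06 and 0.41 on the log2 scale.

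Of 9 transcription factors known to repress or switch classical cadherins, 8 were tested, 4 rose, 3 fell and the median was 0.16. Snai2 (Slug) was at 16.5, 17.3 and 17.2 FPKM in Ad-Con and 7.59, 7.18 and 8.45 in Ad-PDK4 (-1.13 ± 0.071, adjusted p = 1.4e-05), and Snai1 (Snail) at 6.03, 7.38 and 6.60 against 9.83, 9.52 and 8.27 (0.46 ± 0.097, adjusted p = 0.0064). The close relatives therefore moved in opposite directions. Twist1 rose by 0.29 and Tcf3 fell by 0.41. The count of 7 called genes dropped to 4 without Ad-Con replicate 1. Of 17 architecture and silencing factors of the protocadherin clusters, 15 were tested, 0 rose, 3 fell and the median was -0.075. Smc1a and Rad21 of cohesin were lower by small amounts (-0.28 and -0.23, adjusted p = 0.015 and 0.017), as was Dnmt1 (-0.21, adjusted p = 0.020). Dnmt3a, Tet2 and Tet3 were not called. Dnmt3b (48, 36 and 47 reads in Ad-Con against 20, 22 and 34 in Ad-PDK4) and Tet1 (60, 52 and 96 against 32, 33 and 39) were under the filter and lower without overlap. The Dnmt and Tet genes are named here after their values were seen. Leaving out Ad-Con replicate 3 ended the 3 calls, and leaving out Ad-PDK4 replicate 1 kept 1. Ctcf, named after its values were seen, was at 14.5 ± 0.862 and 14.2 ± 0.410 FPKM (-0.03 ± 0.061, adjusted p = 0.70). Of 11 genes of the WAVE complex and kinases that bind protocadherin tails, 9 were tested, 1 rose (Ptk2, 0.29), 2 fell (Wasf1, -0.80, and Abi2, -0.60) and the median was -0.046. Of 8 Schwann and neural markers, which cover cells that use protocadherins most, 2 passed the filter. Tubb3 was not called, and S100b was lower (27, 31 and 22 reads in Ad-Con against 10, 0 and 1 in Ad-PDK4). S100b passed the filter only through its Ad-Con mean (0.967 against 0.134 FPKM). The sum of all 8 was 3.98 to 5.13 FPKM in Ad-Con and 2.59 to 4.80 in Ad-PDK4, and Sox10 and Snap25 were at 0. The part of such cells in the fall of the beta cluster was not tested.

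**Figure D4:**
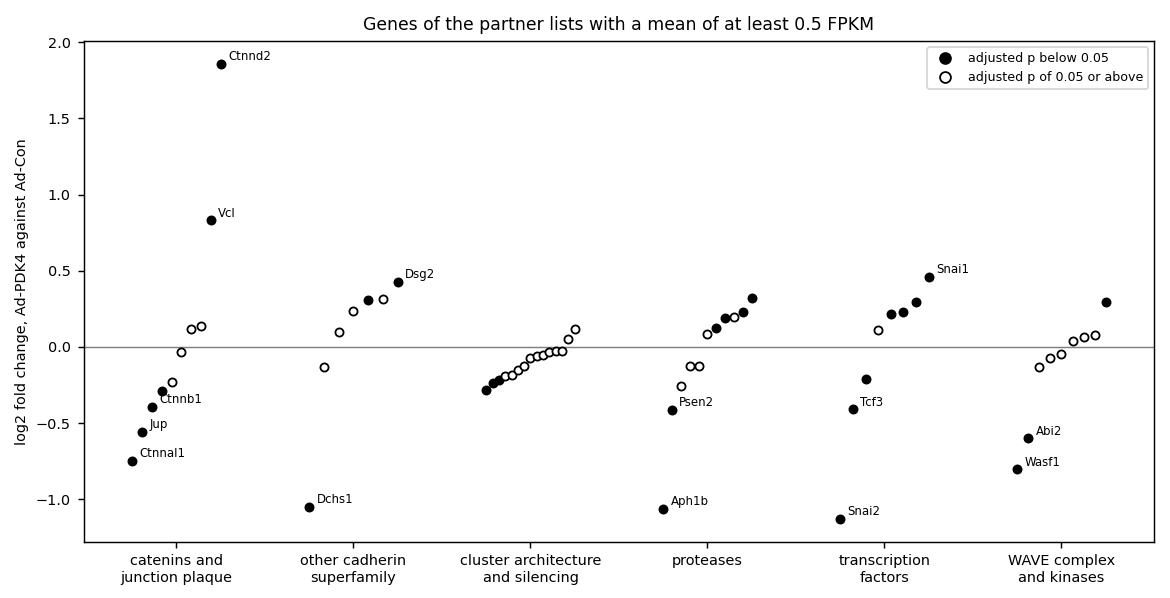
log2 fold change (Ad-PDK4 against Ad-Con) of each tested gene in the 6 partner lists, 1 point per gene, filled where the adjusted p was below 0.05. Ctnnd2 and Vcl are the highest points and Snai2, Aph1b and Dchs1 the lowest, while the architecture and silencing factors lie close to 0.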

How the data were processed

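RNA-seq of 6 libraries was deposited as 1 table of FPKM per gene and library, which the authors made without pooling replicates, together with the gene lengths and coordinates. Per the labels' processing notes, the tools were CASAVA 1.8, fastp, HISAT2 2.0.5, featureCounts 1.5.0-p3 and DESeq2 1.20.0. The notes name GRCm39, but 98.33% of the 54495 genes found in GENCODE M21 had the same start and end there, so coordinates are on GRCm38 as in the table. The kit differs between the labels (SMARTER mRNA-Seq) and the study's methods (NEBNext Ultra), and whether counting used strand is not given in the sources used here. FPKM times gene length gave whole reads, within 0.01, for 100% of values above 0, and these are called reads here. Columns of other samples numbered 0.

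The groups were compared on log2(FPKM + 0.1) values by limma (version 3.58.1, R 4.3.3, trend and robust moderation, no covariate), over the 13423 genes with a mean of at least 0.5 FPKM. A log2 fold change is Ad-PDK4 minus Ad-Con on that scale, which understates changes of low genes, and ± after it is the SE. After FPKM, ± is the SD of 3 libraries. Adjusted p values are limma's, by Benjamini-Hochberg adjustment over all genes of the fit, and those with limma-voom are named so. The scripts were tested on simulated data. Depth limits genes under about 30 reads, and no interval beyond the replicate error was computed for them. Sequences are from RefSeq on GRCm38.p6.

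The members and lists were chosen with earlier results of these data known. Genes were named by a rule: members with an adjusted p below 0.05, or a mean of at least 5 FPKM, or under the filter with at least 30 reads and no overlap between groups. Each partner list contributed its called genes with the 2 greatest rises and 2 greatest falls, and Pdk4 as the targeted gene. A gene that the rule names is not reported here. Other members are named to account for the family, and genes near the clusters, marker genes and antisense partners were named after their values were seen. The alternatives were another pseudocount (1 or 0.01), no filter or a mean of at least 1 FPKM, TPM, quantile or median-of-ratios scaling, a block for the replicate number, moderation without trend or robust, limma-voom and leaving out each library. The limma-voom fit of genes with at least 30 reads and the repeats of the fit without the filter were added after the data had been seen. Set tests were not used here.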

Additional observations from a re-analysis of the deposited data

How the results depend on the processing

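The members called numbered 23 as reported and 19 to 33 under the alternatives, with 15 to 25 lower and 4 to 8 higher, the 8 from limma-voom on genes with at least 30 reads. Counts with the 2-fold limit moved more. Higher members numbered 1 with a pseudocount of 1, 1 at a mean of at least 1 FPKM, 5 with that limma-voom fit and 1 to 2 when 1 library was left out. Lower members numbered 0 with a pseudocount of 1, which pulls low values together, 11 without the filter and 12 with that limma-voom fit. The beta genes called lower without the filter (16) numbered 10 to 14 when 1 library was left out and 10 with the replicate block. Of the lists, the transcription factors gave 4 to 6 calls and the architecture and silencing factors 0 to 3 when 1 library was left out, and limma-voom on at least 30 reads gave 6 for the latter and 5 for the other superfamily genes. The causes were not tested.

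Over the members' fold changes and alternatives, 710 values kept direction and side of the threshold, 43 lost the call, 5 gained one and 9 changed sign. None of the genes that changed sign was called. When 1 library was left out, the log2 fold change of Pcdh18 ran from -0.098 to 0.030 (above 0 with Ad-Con replicate 3 or Ad-PDK4 replicate 2 omitted), that of Cdh24 from -0.068 to 0.26 and that of Cdh1 from -0.32 to 0.11 (each turned by Ad-Con replicate 1), that of Pcdhb15 from -0.34 to 0.031 (Ad-Con replicate 1), that of Pcdhga12 from -0.27 to 0.063 (Ad-PDK4 replicate 3) and that of Pcdhgb1 from -0.16 to 0.043 (Ad-Con replicate 2 or Ad-PDK4 replicate 1 or 3). Pcdh19 also lost its call without the filter (adjusted p = 0.061) and with quantile scaling (0.053), and Pcdhga3 without the filter (0.083) and as TPM (0.064).

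Libraries of the same number in the 2 groups did not deviate together from their group means (correlations -0.046, -0.031 and -0.0013 over genes). These values show no sign of pairing by number. They cannot exclude it where a shared origin adds little spread. The replicate block gave 22 members called, with 5 higher and 17 lower. Depth limits the alpha cluster and the type II cadherins with few reads, where a difference was not detectable.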
